A study of Mus musculus with 12 samples.

Results

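The period genes Per1, Per2 and Per3, the cryptochrome gene Cry2 and 6 further clock outputs (Ciart, Dbp, Tef, Hlf, Bhlhe40 and Bhlhe41) were followed in mouse colon during colitis. They were taken by gene symbol, and all 10 were among the 25904 symbols of the deposited table. Mice aged 7 weeks and free of specific pathogens were given 3% dextran sulfate sodium (DSS), a polymer that damages the lining of the colon and brings on colitis, in an experiment lasting 6 days. Bulk RNA of the mid-colon was sequenced at days 0, 2, 4 and 6, with 3 libraries per day and 12 in all. Day 0 served as the reference, because no library is labelled as water-only at a later day. Strain, sex, genotype and the hour of harvest are not named in the labels, so DSS, age and hour of harvest cannot be told apart. Separate animals for the 3 libraries of a day are not stated in the labels, and p-values here rest on a spread between samples that could be technical only.

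The circadian clock of mammals is a feedback loop of transcription. The activators CLOCK and BMAL1 (the product of Arntl) bind E-boxes and drive the Per and Cry genes, whose products return to the nucleus and block those activators. The same activators drive output genes, among them Ciart, which encodes a further repressor, the PAR bZIP factors Dbp, Tef and Hlf, which bind D-boxes in their own targets, and Bhlhe40 and Bhlhe41, whose products compete for E-boxes. Per1 is also an acute target of glucocorticoid receptor and cAMP signalling. In the gut, clocks run in epithelium and muscle and are known for timing motility and cell turnover.

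The RefSeq promoter windows (GRCm38.p6, 250 bases before to 50 after each annotated start) were searched for clock motifs on both strands. The table matched 8 of the 10 genes, with 10 windows, and held no window for Per2 or Bhlhe40. The E-box CACGTG, which is its own reverse complement, was found in 7.15% of all 32817 windows and in those of Ciart, Bhlhe41 and both starts of Tef. Per1 also has 2 annotated starts in the table, with an E-box in the window of the upstream start and none in the other. Its variant CACGTT, read on the other strand as AACGTG, stood in 4.69% of windows and in that of Cry2. A D-box (TTATGTAA, its reverse complement TTACATAA, or TTACGTAA) stood in 1.05% of windows and in that of Per3. A cAMP response element, TGACGTCA, stood in 1.79% of windows and in that of Hlf. None of these letters was in the Dbp window, which says nothing of sites outside it. Shown here are the 250 bases before the start for the 2 genes whose transcripts fell at day 2, Ciart and Bhlhe41, and for the period genes that moved in opposite directions at day 6, Per1 and Per3. Capitals mark E-boxes in Ciart, Bhlhe41 and Per1 and D-boxes in Per3.
Ciart, chr3:95882229-95882478, minus strand: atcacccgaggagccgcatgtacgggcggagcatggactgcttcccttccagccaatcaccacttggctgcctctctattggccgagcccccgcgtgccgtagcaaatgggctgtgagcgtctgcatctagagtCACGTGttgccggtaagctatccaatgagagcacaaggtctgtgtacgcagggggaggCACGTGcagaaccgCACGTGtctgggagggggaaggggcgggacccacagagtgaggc
Bhlhe41, chr6:145865421-145865670, minus strand: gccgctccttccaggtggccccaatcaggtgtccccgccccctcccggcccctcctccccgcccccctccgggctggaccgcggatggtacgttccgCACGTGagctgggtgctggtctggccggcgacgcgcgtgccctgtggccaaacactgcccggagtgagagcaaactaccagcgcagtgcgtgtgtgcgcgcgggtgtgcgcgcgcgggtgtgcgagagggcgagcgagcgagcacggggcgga
Per1, chr11:69098699-69098948, plus strand: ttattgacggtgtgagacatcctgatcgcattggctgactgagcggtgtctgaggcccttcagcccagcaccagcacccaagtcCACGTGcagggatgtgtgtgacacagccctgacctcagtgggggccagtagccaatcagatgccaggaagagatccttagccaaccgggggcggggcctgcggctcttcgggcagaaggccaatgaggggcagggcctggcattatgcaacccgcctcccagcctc
Per3, chr4:151044666-151044915, minus strand: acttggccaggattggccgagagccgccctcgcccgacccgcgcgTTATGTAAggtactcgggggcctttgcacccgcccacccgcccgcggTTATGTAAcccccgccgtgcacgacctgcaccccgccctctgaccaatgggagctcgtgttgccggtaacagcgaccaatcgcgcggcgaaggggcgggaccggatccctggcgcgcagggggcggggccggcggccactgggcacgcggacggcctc
The 3 E-boxes of Ciart begin 116, 58 and 44 bases before its start, that of Bhlhe41 153 bases before, that of the upstream Per1 start 166 bases before, and the D-boxes of Per3 205 and 158 bases before. A match describes the sequence and is not evidence of binding in these tissues.

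Expression was measured in CPM (reads of a gene scaled to a common library total). The libraries held 31058911 to 41011004 reads, and the fewest reads behind any value of the 10 genes were 63, for Bhlhe41 in day 2 replicate 2. All 10 epithelial and all 10 smooth muscle markers were detected on every day. Summed epithelial markers lay between 5893 and 16980 CPM at day 6, against 13280 to 18650 CPM at day 0, and summed smooth muscle markers between 3346 and 8512 CPM at day 6, against 9312 to 12320 CPM at day 0. Summed leukocyte markers lay between 933 and 1802 CPM at day 6, against 213 to 253 CPM at day 0. In bulk tissue, fewer cells of a type and less RNA per cell cannot be told apart. Day 6 replicate 2 had the lowest epithelial marker score of its day (mean log2(CPM + 1) of 8.60, against 9.45 and 10.1 in its fellow libraries) and the highest smooth muscle score (9.30, against 8.58 and 7.95), and calls that change without it are given where they occur.

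All 10 genes passed the filter of at least 1 CPM in at least 3 libraries, as did 15246 genes in all. With limma and Benjamini-Hochberg adjustment over all genes tested at a threshold of 0.05, 6 of the 10 differed between the 4 days by an F test: Dbp (adjusted p = 0.000738), Bhlhe41 (0.00114), Per1 (0.00169), Per3 (0.00174), Ciart (0.00526) and Tef (0.0175). That test called 43.0% of all genes. Tef lost this call without day 0 replicate 1 or replicate 3. Per2, Bhlhe40, Hlf and Cry2 did not pass (adjusted p = 0.107, 0.0692, 0.187 and 0.455).

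At day 2 against day 0, none of the 10 genes rose and Ciart and Bhlhe41 fell, in a comparison that called 0.321% of all genes, 0.118% higher and 0.203% lower. At day 4 against day 0, none rose and 4 fell (Per3, Dbp, Tef and Bhlhe41), where 33.2% of all genes were called, 21.2% higher and 12% lower. At day 6 against day 0, Per1 rose and Per3, Dbp and Bhlhe41 fell, where 35.9% of all genes were called, 23.5% higher and 12.4% lower. With rises and falls pooled, the counts at days 4 and 6 were thus near the background. By direction, more of the 10 genes fell and fewer rose than among all genes, by few genes in each case. Of the 10 genes, 4 fell at day 4 and 3 at day 6, where 12% and 12.4% of all genes fell. Rises numbered 0 at day 4 and 1 at day 6, where 21.2% and 23.5% of all genes rose. Whether these shares differ was not tested. With a library left out, the falls numbered 1 to 5 at day 4 and 3 to 5 at day 6. Between successive days, Ciart and Bhlhe40 rose and none fell at day 4 against day 2, where 34.0% of all genes were called, 21.0% higher and 12.9% lower. Per1 rose and none fell at day 6 against day 4, where 2.85% were called, 1.90% higher and 0.951% lower. This background itself moved with single libraries, to 14.4% without day 6 replicate 3 and to between 0.73% and 1.56% without any day 4 library or replicate 1 or 2 of day 6. The median log2 fold change of the 10 genes was -0.84, -0.62 and -0.62 at days 2, 4 and 6 against day 0, beside 0.04, 0.13 and 0.14 over all genes tested. Median-of-ratios scaling moved the medians of all genes at days 4 and 6 to 0.0087 and -0.0149, and no call of the 10 genes changed direction under it. The counts against day 0 did change under it, to 3 at day 2 (Dbp added), 5 at day 4 (Hlf added) and 6 at day 6 (Ciart and Tef added). Of all genes, 31.7% were called at day 4 and 34.0% at day 6 under this scaling. At day 4 against day 2 the call of Bhlhe40 was lost under it. The 3 comparisons against day 0 share the day 0 libraries.

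These counts depended on single libraries. The 2 falls at day 2 numbered 0 without any library of days 0 or 2 or without day 4 replicate 3, 1 without day 6 replicate 1, and 5 without day 6 replicate 2, which also added the rise of Per1. The 4 falls at day 4 numbered 2 without day 0 replicate 1 or day 4 replicate 3, and 1 without day 0 replicate 3 or day 4 replicate 1. The 3 falls at day 6 numbered 5 without day 0 replicate 2, which added Ciart and Tef, or without day 6 replicate 2, which added Hlf and Tef. The 2 rises at day 4 against day 2 numbered 0 when replicate 1 or 2 of day 2 or replicate 2 of day 4 was left out.

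The libraries of day 2 and day 0 did not overlap for 7 of the 10 genes, with Per1 higher at day 2 and Per3, Dbp, Tef, Hlf, Ciart and Bhlhe41 lower, where 30.7% of all genes did not overlap, 18.7% higher and 12% lower. At day 4, Per3, Dbp, Tef, Hlf, Ciart and Bhlhe41 were again below every day 0 library, where 54.0% of all genes did not overlap, 34.0% higher and 20% lower. At day 6, 5 genes did not overlap day 0, with Per1 and Bhlhe40 higher and Per3, Dbp and Bhlhe41 lower, where the background was 41.0%, 26.6% higher and 14.4% lower. At day 4 against day 2, Ciart was higher and Per2 lower without overlap, where 59.1% of all genes did not overlap, 34.8% higher and 24.3% lower. At day 6 against day 4, Per1 and Per2 were higher and Dbp and Bhlhe41 lower without overlap, where the background was 22.3%, 9.88% higher and 12.5% lower.

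**Figure D1:**
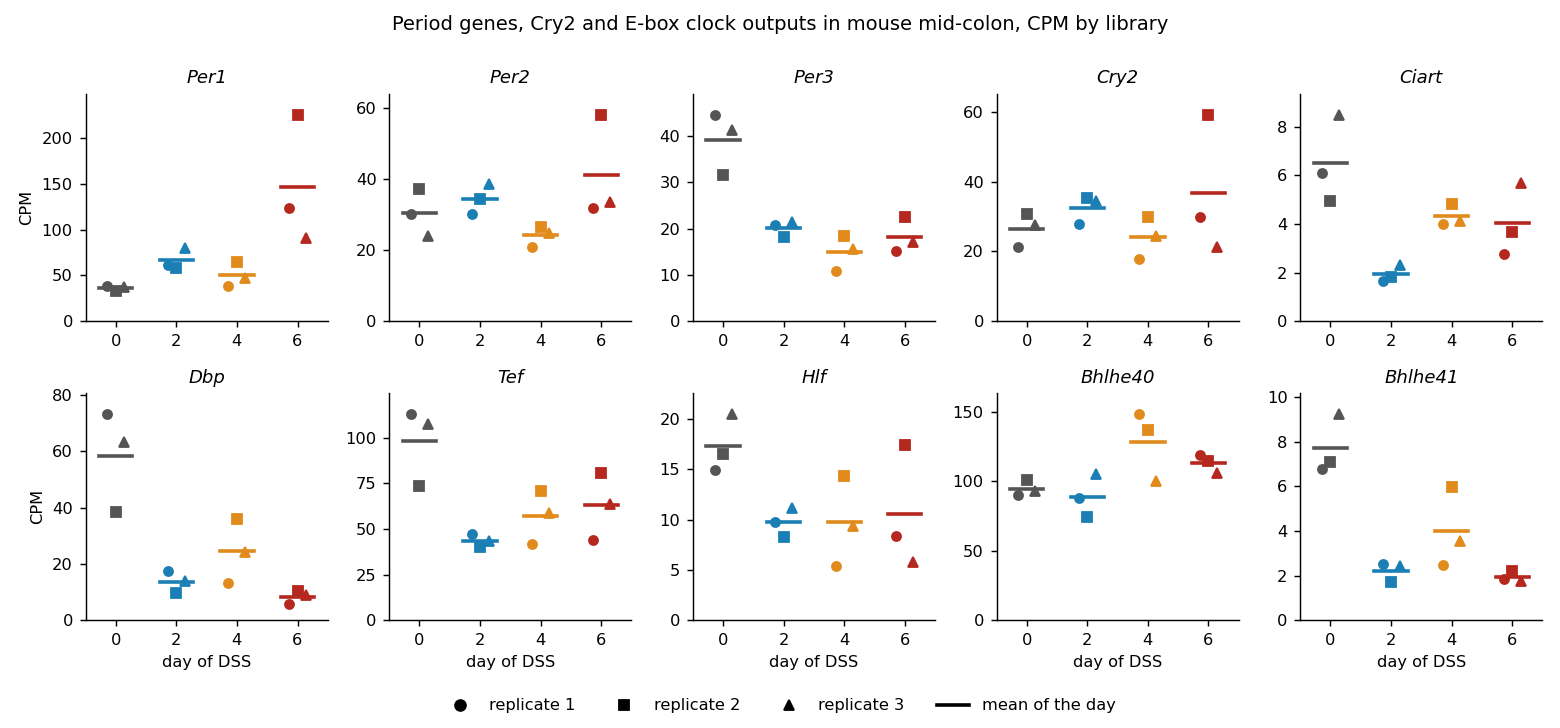
CPM of each of the 10 genes (vertical axes, from 0) by day of DSS (horizontal axes), with 1 point per library, the marker shape giving the replicate number and the line the mean of the day. Per1 reached 91.2 to 225 CPM at day 6, above every earlier library, while Dbp at day 6 lay between 5.68 and 10.4 CPM.

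Per1, which encodes a repressor subunit of the clock, was the 1 member that rose at day 6. It had 38.9, 33.5 and 37.8 CPM at day 0, 61.6, 58.6 and 79.5 CPM at day 2, 38.1, 64.9 and 47.3 CPM at day 4, and 123, 225 and 91.2 CPM at day 6. Every day 6 library stood above every library of the earlier days, and replicate 2 was the highest. Per1 averaged 147 ± 70.0 CPM at day 6 and 36.8 ± 2.85 CPM at day 0 (SD, n = 3 each), a log2 fold change of 1.87 ± 0.29 (standard error, SE; adjusted p = 0.000505 in limma, on the log2(CPM + 1) scale used for all fold changes here). This call held without each of the 12 libraries in turn. Against day 4, where Per1 averaged 50.1 ± 13.6 CPM, the log2 fold change at day 6 was 1.46 ± 0.29 (adjusted p = 0.0223). That call was lost when day 4 replicate 1 (adjusted p = 0.113), day 4 replicate 3 (0.0966) or day 6 replicate 1 (0.0608) was left out. All day 2 libraries also stood above day 0, at 66.6 ± 11.3 CPM, but the difference did not pass the test (log2 fold change 0.83 ± 0.29, adjusted p = 0.248). It passed without day 6 replicate 2 (adjusted p = 0.0418).

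Per3, whose protein belongs to the same family and is dispensable for the core rhythm in mice, went the other way. It had 44.5, 31.5 and 41.3 CPM at day 0, 20.8, 18.3 and 21.3 CPM at day 2, 10.8, 18.3 and 15.7 CPM at day 4, and 15.1, 22.6 and 17.0 CPM at day 6. No library of days 2, 4 or 6 reached the lowest day 0 library. At day 4 it averaged 14.9 ± 3.83 CPM, against 39.1 ± 6.75 CPM at day 0 (log2 fold change -1.35 ± 0.21, adjusted p = 0.000647), and at day 6 18.2 ± 3.88 CPM (-1.07 ± 0.21, adjusted p = 0.0025). Both calls held without each library in turn. At day 2 it averaged 20.1 ± 1.63 CPM and missed the threshold (-0.91 ± 0.21, adjusted p = 0.114), a comparison that passed without day 6 replicate 2 (adjusted p = 0.0274). Neither successive comparison was called, with log2 fold changes of -0.44 ± 0.21 for day 4 against day 2 (adjusted p = 0.136, and 0.0296 under quantile normalization) and 0.28 ± 0.21 for day 6 against day 4 (adjusted p = 0.521).

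Per2, the family member most needed for the core rhythm in mice, was not called in any of the 5 comparisons. It had 30.3, 37.2 and 24.0 CPM at day 0, 30.2, 34.5 and 38.7 CPM at day 2, 21.0, 26.6 and 24.9 CPM at day 4, and 31.9, 58.1 and 33.6 CPM at day 6. The days overlap except that all day 4 libraries were below those of days 2 and 6. The log2 fold change at day 6 against day 0 was 0.39 (95% confidence interval -0.11 to 0.89), which includes 0. At day 6 against day 4 it was 0.70 ± 0.23 (adjusted p = 0.134). At day 4 against day 2 it was -0.49 ± 0.23 (adjusted p = 0.122), which passed without day 6 replicate 2 (0.0293) and under quantile normalization (0.0415).

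Cry2, which encodes a cryptochrome that joins PER proteins in the repressor complex, was not called either. It had 21.3, 30.6 and 27.4 CPM at day 0, 27.8, 35.2 and 34.3 CPM at day 2, 17.8, 29.9 and 24.4 CPM at day 4, and 29.7, 59.1 and 21.2 CPM at day 6. The day 6 libraries overlapped those of every other day. The log2 fold change at day 6 against day 0 was 0.34 (95% confidence interval -0.35 to 1.04, adjusted p = 0.419).

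Ciart, which encodes a repressor that acts on the CLOCK and BMAL1 complex, was lowest at day 2. It had 6.08, 4.92 and 8.48 CPM at day 0, 1.63, 1.81 and 2.33 CPM at day 2, 4.02, 4.80 and 4.11 CPM at day 4, and 2.76, 3.68 and 5.69 CPM at day 6. Day 2 lay below every library of the other days. It averaged 1.93 ± 0.362 CPM at day 2 and 6.49 ± 1.81 CPM at day 0 (log2 fold change -1.34 ± 0.24, adjusted p = 0.0428). At day 4 it averaged 4.31 ± 0.427 CPM and had risen against day 2 (0.86 ± 0.24, adjusted p = 0.0155). The differences of days 4 and 6 from day 0 did not pass (-0.47 ± 0.24, adjusted p = 0.148, and -0.59 ± 0.24, adjusted p = 0.0757). The day 6 difference passed under median-of-ratios scaling (adjusted p = 0.039) and quantile normalization (0.0255), and when day 0 replicate 2 (0.0481) or day 6 replicate 3 (0.0121) was left out. The day 2 call rested on a narrow margin. It was lost without any single library of days 0, 2 or 4, with adjusted p between 0.0599 without day 0 replicate 2 and 0.217 without day 2 replicate 2, and held without each day 6 library. The rise at day 4 against day 2 was lost when replicate 1 (adjusted p = 0.0573) or 2 (0.0513) of day 2 or replicate 2 of day 4 (0.0564) was left out.

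Dbp, the D-box activator whose transcript is among the most rhythmic in mouse tissues, had the largest fold change of the 10 genes. It had 73.2, 38.5 and 63.2 CPM at day 0, 17.6, 9.89 and 13.9 CPM at day 2, 13.1, 36.2 and 24.4 CPM at day 4, and 5.68, 10.4 and 8.89 CPM at day 6. Every library of days 2, 4 and 6 stood below every day 0 library, and day 4 spread 2.75-fold between its lowest and highest library. At day 6 Dbp averaged 8.32 ± 2.41 CPM, against 58.3 ± 17.9 CPM at day 0, a log2 fold change of -2.65 ± 0.36 or a 6.30-fold lower level on that scale (adjusted p = 0.000212), and this held without each library in turn. At day 4 it averaged 24.6 ± 11.5 CPM (-1.27 ± 0.36, adjusted p = 0.0195), a call lost without day 0 replicate 1 (adjusted p = 0.0773), day 0 replicate 3 (0.0643) or day 4 replicate 1 (0.0745). At day 2, at 13.8 ± 3.83 CPM, it missed the threshold by a small margin (-1.99 ± 0.36, adjusted p = 0.0509). That comparison passed under a pseudocount of 5 (adjusted p = 0.0423), median-of-ratios scaling (0.034), quantile normalization (0.0456) and moderation without trend and robust settings (0.0496), and also when replicate 1 (0.0322) or 2 (0.0437) of day 4, or replicate 2 (0.0152) or 3 (0.0409) of day 6, was left out. The difference of day 6 from day 4 (-1.38 ± 0.36, adjusted p = 0.0704) passed without day 4 replicate 1 (0.0481) or day 6 replicate 3 (0.0399), under quantile normalization (0.0463) and in edgeR (0.0454). That of day 4 from day 2 (0.72 ± 0.36, adjusted p = 0.155) passed without day 4 replicate 1 (0.0366). In the annotation, 539 bases, or 18.0% of the exonic bases of Dbp, lie opposite exons of Sphk2 on the other strand. Sphk2 averaged 119 ± 2.59 CPM at day 0, 98.8 ± 7.29 CPM at day 2, 67.3 ± 2.35 CPM at day 4 and 71.8 ± 6.77 CPM at day 6. The strand setting of the counting is not given in the sources used here, and the part of shared reads in the Dbp values was not tested.

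Tef, a second D-box activator, had 113, 73.6 and 108 CPM at day 0, 47.4, 40.1 and 43.7 CPM at day 2, 41.7, 70.8 and 58.9 CPM at day 4, and 44.3, 80.6 and 64.0 CPM at day 6. All libraries of days 2 and 4 were below day 0, whereas at day 6 replicate 2 exceeded the lowest day 0 library. Tef averaged 57.2 ± 14.6 CPM at day 4 and 98.0 ± 21.4 CPM at day 0 (log2 fold change -0.78 ± 0.25, adjusted p = 0.0314). That fall was lost when replicate 1 (adjusted p = 0.108) or 3 (0.101) of day 0, or replicate 1 (0.122) or 3 (0.0652) of day 4, was left out. The differences at day 2 (43.7 ± 3.64 CPM, -1.12 ± 0.25, adjusted p = 0.107) and day 6 (63.0 ± 18.2 CPM, -0.65 ± 0.25, adjusted p = 0.0607) did not pass. The day 2 difference passed without day 6 replicate 2 (adjusted p = 0.0214). The day 6 difference passed without day 6 replicate 2 (adjusted p = 0.0196), day 0 replicate 2 (0.0302) or day 4 replicate 1 (0.0482), under median-of-ratios scaling (0.0205), under quantile normalization (0.0242) and in edgeR (0.0222).

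Hlf, the third factor of this family, had 15.0, 16.6 and 20.5 CPM at day 0, 9.81, 8.30 and 11.2 CPM at day 2, 5.38, 14.4 and 9.42 CPM at day 4, and 8.39, 17.4 and 5.82 CPM at day 6. Days 2 and 4 lay below day 0, and day 6 replicate 2 lay among the day 0 libraries. No comparison passed the test. The log2 fold changes against day 0 were -0.77 ± 0.37, -0.85 ± 0.37 and -0.78 ± 0.37 at days 2, 4 and 6 (adjusted p = 0.354, 0.0948 and 0.116). The day 4 difference passed without day 4 replicate 2 (adjusted p = 0.0467), without day 6 replicate 2 (0.0276), under median-of-ratios scaling (0.0449) and under quantile normalization (0.0298). The day 6 difference passed without day 6 replicate 2 (adjusted p = 0.0124) and under quantile normalization (0.0259). All 3 PAR bZIP genes were thus lower in every library of days 2 and 4 than in any of day 0, with 2 of them called at day 4.

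Bhlhe41, an E-box repressor with the lowest mean CPM of the 10 at days 4 and 6, had 6.78, 7.10 and 9.24 CPM at day 0, 2.51, 1.73 and 2.44 CPM at day 2, 2.49, 5.99 and 3.56 CPM at day 4, and 1.85, 2.22 and 1.75 CPM at day 6. Each library of days 2, 4 and 6 was below every day 0 library. At day 6 it averaged 1.94 ± 0.248 CPM, against 7.71 ± 1.34 CPM at day 0 (log2 fold change -1.56 ± 0.24, adjusted p = 0.000507), and this held without each library in turn. At day 4 it averaged 4.01 ± 1.79 CPM (-0.85 ± 0.24, adjusted p = 0.0198), lost without day 0 replicate 3 (adjusted p = 0.0781), day 4 replicate 1 (0.0797) or day 4 replicate 3 (0.0637). At day 2 it averaged 2.23 ± 0.433 CPM (-1.43 ± 0.24, adjusted p = 0.0342), lost without any library of days 0 or 2, day 4 replicate 3 (0.0688) or day 6 replicate 1 (0.0676), with the highest adjusted p, 0.217, without day 2 replicate 2. The difference of day 4 from day 2 (0.58 ± 0.24, adjusted p = 0.0856) passed without day 4 replicate 1 (0.0273). An unnamed gene on the other strand, Gm43909, shares 1280 bases with its exons, and its reads were not analysed here.

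Bhlhe40, a close relative that also represses at E-boxes and is induced by many stimuli, was not called against day 0 on any day with all 12 libraries. It had 90.2, 100.6 and 92.7 CPM at day 0, 87.6, 74.2 and 105 CPM at day 2, 148, 137 and 99.9 CPM at day 4, and 119, 114 and 106 CPM at day 6. Day 6 stood above every day 0 library by a small amount, and days 2 and 4 overlapped in their range. It averaged 128 ± 25.2 CPM at day 4 and 88.9 ± 15.4 CPM at day 2 (log2 fold change 0.52 ± 0.16, adjusted p = 0.0301). That rise was lost under median-of-ratios scaling (adjusted p = 0.0793), quantile normalization (0.055) and edgeR (0.0677), and without day 2 replicate 1 (0.074), day 2 replicate 2 (0.131), day 4 replicate 1 (0.123) or day 4 replicate 2 (0.102). Against day 0 the log2 fold changes were -0.10 ± 0.16, 0.42 ± 0.16 and 0.26 ± 0.16 at days 2, 4 and 6 (adjusted p = 0.777, 0.0706 and 0.247), of which that at day 4 passed without day 4 replicate 3 (adjusted p = 0.0208).

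**Figure D2:**
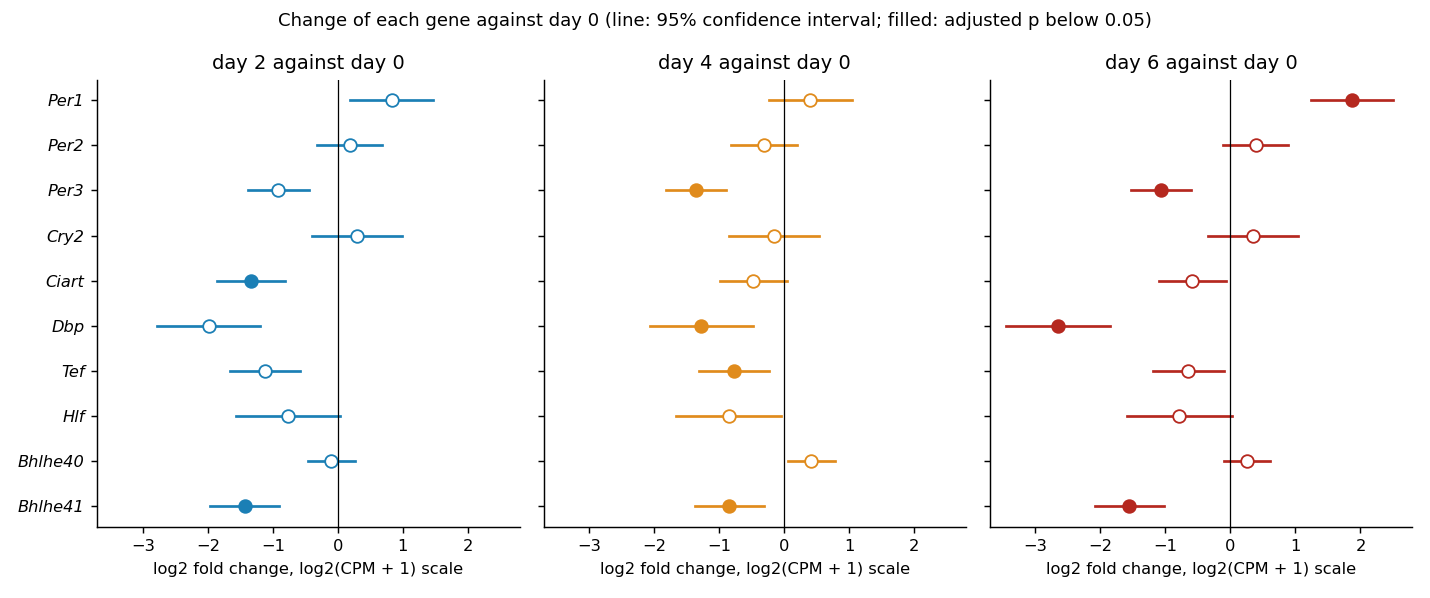
Log2 fold change of each gene at days 2, 4 and 6 against day 0 on the log2(CPM + 1) scale (horizontal axes), with lines for the 95% confidence interval and filled points where the adjusted p was below 0.05. Per1 at day 6, at 1.87, is the only filled point to the right of 0, and Dbp at day 6, at -2.65, is farthest to the left.

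Per1 was set against Per3 and Dbp, which moved the other way, as a ratio within each library, which no scaling of libraries can alter. The Per1 to Per3 ratio in CPM was 0.875 to 1.06 (day 0), 2.96 to 3.73 (day 2), 3.02 to 3.54 (day 4) and 5.36 to 9.99 (day 6). The ratio was above that of day 0 in all 9 later libraries, day 6 did not overlap any other day, and day 4 lay within the range of day 2. The Dbp to Per1 ratio was 1.15 to 1.88 (day 0), 0.169 to 0.285 (day 2), 0.345 to 0.557 (day 4) and 0.0461 to 0.0975 (day 6), and no day overlapped another. These ratios restate the opposite directions described above, and show unequal change of the 2 genes and not which of them moved.

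Levels of different genes were compared per kilobase of exons in the GENCODE M21 annotation of GRCm38. At day 0 the mean level ran from Bhlhe40 (20.1 CPM per kb) and Dbp (19.5) through Tef (12.5), Per1 (6.53), Per2 (5.21), Cry2 (4.19) and Per3 (4.07) to Ciart (2.87), Hlf (2.60) and Bhlhe41 (1.15). At day 6 the order began with Per1 (26.0 CPM per kb) and Bhlhe40 (24.0), followed by Tef (8.00), Per2 (7.04) and Cry2 (5.80), and Dbp stood at 2.78, Per3 at 1.90, Ciart at 1.79, Hlf at 1.58 and Bhlhe41 at 0.289. Dbp was thus level with Bhlhe40 at day 0 and below Cry2 at day 6. Neighbours in these orders, such as Cry2 and Per3 at day 0 or Per3 and Ciart at day 6, differ by less than their spread between libraries. The exonic length counts every annotated exon, so it overstates the length of the transcripts in use.

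Other genes of the clock were taken as a list of activators and of the REV-ERB and ROR loop, of which 10 of 11 passed the filter. At day 2 against day 0, 1 rose and none fell, at day 4, 2 rose and 1 fell, and at day 6, 3 rose and 2 fell, with list medians of 0.41, 0.11 and 0.37 on the log2 scale. Of all genes tested, 0.118% rose and 0.203% fell at day 2, 21.2% and 12% at day 4, and 23.5% and 12.4% at day 6, with medians of 0.04, 0.13 and 0.14. Without day 6 replicate 2, 3 rose at day 2 and 3 fell at day 4. With day 6 replicate 3 left out, 2 rose at day 2 and 5 rose at day 6. With day 0 replicate 3 left out, 1 rose at day 4 and 1 fell at day 6. The rises at day 4 also numbered 1 without day 4 replicate 3. Arntl, the gene for the activator BMAL1, had 19.2, 24.1 and 18.9 CPM at day 0, 54.9, 54.7 and 60.2 CPM at day 2, 27.9, 21.8 and 25.3 CPM at day 4, and 29.2, 27.9 and 20.4 CPM at day 6. Day 2 stood above every other library, with 56.6 ± 3.11 CPM against 20.7 ± 2.91 CPM at day 0 (log2 fold change 1.41 ± 0.16, adjusted p = 0.00424, held without each library in turn), and Arntl fell again at day 4 against day 2 (-1.15 ± 0.16, adjusted p = 0.000253). Day 2 was also where Ciart was lowest. Npas2, a paralog of Clock, averaged 36.1 ± 2.49 CPM at day 2 and 16.0 ± 2.64 CPM at day 0 (1.13 ± 0.21, adjusted p = 0.0518) and fell at day 4 against day 2 (-1.59 ± 0.21, adjusted p = 0.000174). Clock itself was not called in any comparison and averaged 83.3 ± 16.8 CPM at day 2 and 62.4 ± 14.2 CPM at day 0 (0.41 ± 0.20, adjusted p = 0.352).

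Among the repressors outside the 10, Nr1d1, which encodes REV-ERB alpha and is itself an E-box target, fell at day 6. It averaged 56.2 ± 15.4 CPM there, against 124 ± 15.7 CPM at day 0 (log2 fold change -1.16 ± 0.20, adjusted p = 0.000913). Its paralog Nr1d2 averaged 66.4 ± 13.5 CPM at day 6, against 101 ± 16.1 CPM at day 0 (-0.60 ± 0.17, adjusted p = 0.0193), a fall that was lost without day 0 replicate 3 (0.0803) or day 6 replicate 1 (0.0656). At day 2, where Ciart and Bhlhe41 fell, Nr1d1 averaged 116 ± 5.25 CPM (-0.10 ± 0.20, adjusted p = 0.813). Cry1, the paralog of Cry2, rose at day 6 to 26.7 ± 1.59 CPM, against 15.7 ± 1.22 CPM at day 0 (0.73 ± 0.15, adjusted p = 0.00335). Its mean was highest at day 2, at 28.3 ± 4.12 CPM and without overlap with day 0, but missed the threshold there (0.80 ± 0.15, adjusted p = 0.0585). Cry1 then fell at day 4 against day 2 (-0.43, adjusted p = 0.0475), a call kept in 4 of the 12 fits without a library. Nfil3, a repressor that binds the D-boxes used by Dbp, Tef and Hlf, rose at day 4, to 26.4 ± 8.75 CPM (2.01 ± 0.39, adjusted p = 0.00238), and at day 6, to 75.0 ± 39.5 CPM, against 5.70 ± 1.46 CPM at day 0 (3.37 ± 0.39, adjusted p = 6.0e-05). The Nr1d1 fall, the Cry1 rise at day 6 and both Nfil3 rises held without each library in turn. The Dbp to Arntl ratio within a library was 1.60 to 3.81 (day 0), 0.181 to 0.320 (day 2), 0.472 to 1.66 (day 4) and 0.194 to 0.435 (day 6). Day 4 alone among the DSS days reached the range of day 0, and did so in replicate 2.

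**Figure D3:**
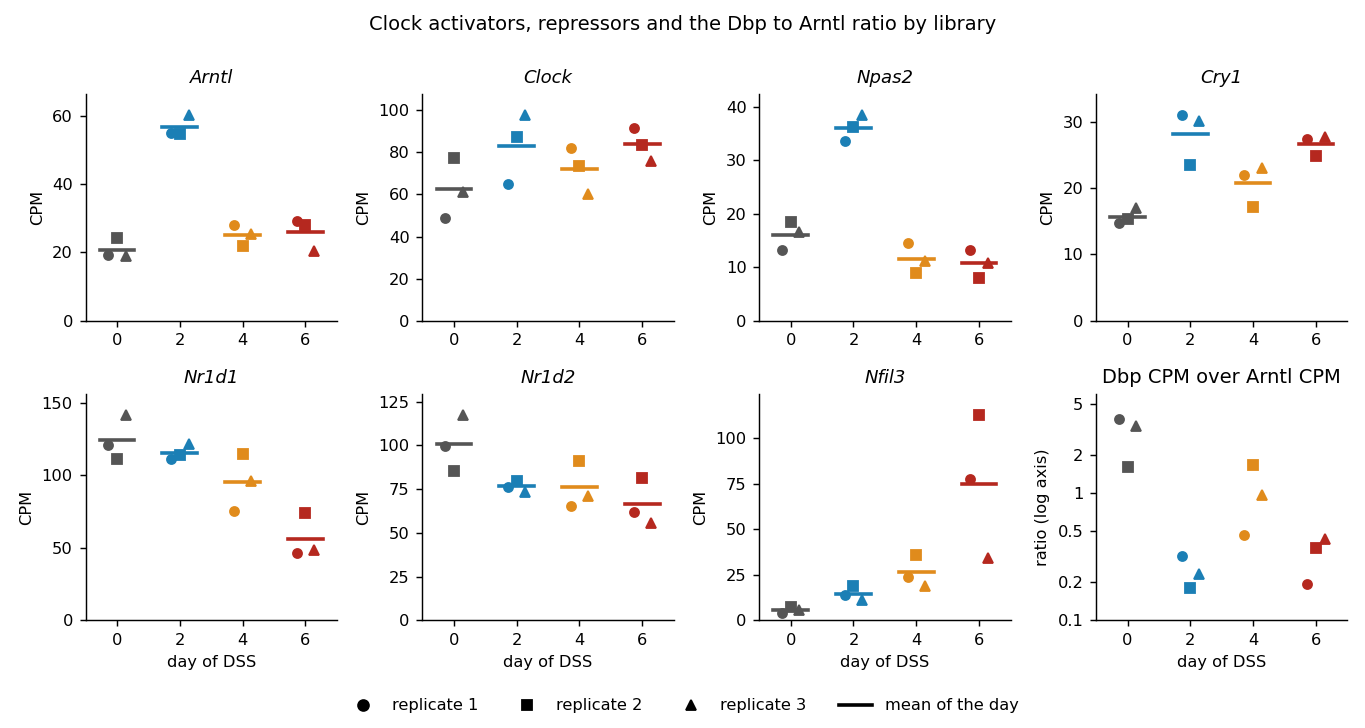
CPM of Arntl, Clock, Npas2, Cry1, Nr1d1, Nr1d2 and Nfil3 and the ratio of Dbp CPM to Arntl CPM on a log axis, by day of DSS, with 1 point per library, the shape giving the replicate number and the line the mean of the day. Arntl stood at 54.7 to 60.2 CPM at day 2 and at no more than 29.2 CPM in any library of another day.

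Per1 was set beside 2 lists of genes that respond to its known acute inducers. Of 14 glucocorticoid targets, 4 rose and none fell at day 2 against day 0, 4 rose and 2 fell at day 4, and 11 rose and none fell at day 6, with list medians of 0.56, 0.10 and 1.71 on the log2 scale. Against day 4, 9 of the 14 rose at day 6, where 1.90% of all genes rose. The counts at day 4 were near those of all genes tested, of which 21.2% rose and 12% fell, whereas 0.118% rose at day 2 and 23.5% at day 6. Fkbp5, which encodes a chaperone partner of the glucocorticoid receptor, had 104, 104 and 115 CPM at day 0, 186, 262 and 237 CPM at day 2, 142, 129 and 144 CPM at day 4, and 324, 390 and 375 CPM at day 6. As for Per1, every day 2 library was above day 0 and every day 6 library was above all others. The other targets called at day 2, Sgk1, Pdk4 and Zbtb16, did not share this order. Sgk1 averaged 160 CPM at day 2, 28.3 CPM at day 4 and 106 CPM at day 6, and Pdk4 28.2, 5.91 and 16.6 CPM. For Zbtb16, day 6 replicate 3 (24.5 CPM) was below every day 2 library. Sgk1 and Tsc22d3 were the 2 targets that fell at day 4. At day 6 Fkbp5 averaged 363 ± 34.2 CPM, against 108 ± 6.06 CPM at day 0 (log2 fold change 1.74 ± 0.14, adjusted p = 4.8e-06). Mt2, a metallothionein gene, rose most at day 6, to 526 ± 310 CPM, against 22.1 ± 3.09 CPM at day 0 (4.29 ± 0.39, adjusted p = 1.0e-05). Zbtb16, a zinc finger gene, rose most at day 2, to 32.2 ± 3.31 CPM, against 1.90 ± 0.711 CPM at day 0 (3.54 ± 0.43, adjusted p = 0.00664). The count of 4 at day 2 was 1 when day 0 replicate 2 or replicate 2 or 3 of day 2 was left out, and 2 when day 0 replicate 3, day 2 replicate 1, any day 4 library or day 6 replicate 1 was left out. The 2 falls at day 4 numbered 0 when day 0 replicate 1 or replicate 1 or 3 of day 4 was left out, and 1 when day 0 replicate 3 or day 4 replicate 2 was. The count of 11 at day 6 ranged from 8 to 13 without a library. The count of 9 at day 6 against day 4 ranged from 6 to 13, where the share of all genes called also moved, as given above.

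The glucocorticoid score per library, the mean of log2(CPM + 1) over the list, was 5.09 to 5.24 (day 0), 5.97 to 6.06 (day 2), 5.44 to 5.67 (day 4) and 6.43 to 7.72 (day 6). Day 6 replicate 2, which had the most Per1, also had the highest score. Of 11 immediate early genes, which are induced within a short time by many signals, none rose at day 2 (7 were higher at an unadjusted p under 0.05), and 5 rose at day 4 and at day 6 against day 0, with none falling and list medians of 0.54, 0.87 and 0.63, beside the 21.2% and 23.5% of all genes that rose. Dusp1, which belongs to both lists and encodes a phosphatase of MAP kinases, rose to 165 ± 65.0 CPM at day 6, against 29.7 ± 3.53 CPM at day 0 (log2 fold change 2.37 ± 0.24, adjusted p = 2.7e-05). Egr1, a zinc finger factor gene, rose most at day 4, to 145 ± 98.7 CPM, against 22.0 ± 8.66 CPM at day 0 (2.53 ± 0.50, adjusted p = 0.00288). The immediate early score was 4.80 to 5.00 (day 0), 5.54 to 5.99 (day 2), 5.30 to 6.15 (day 4) and 5.52 to 5.82 (day 6), and days 2, 4 and 6 overlapped. The count of 5 at day 6 was 3 when replicate 1 or 2 of day 0 or replicate 1 or 3 of day 6 was left out, and 2 rose at day 2 without day 6 replicate 2. The part of either signal in the Per1 values was not tested.

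**Figure D4:**
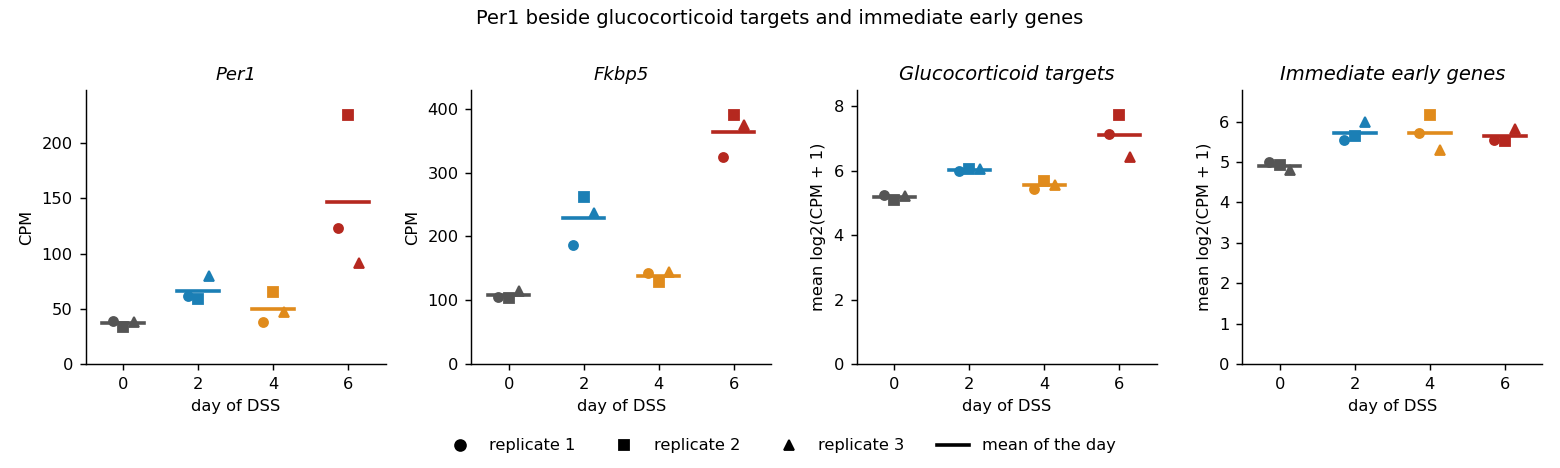
Per1 and Fkbp5 in CPM and the glucocorticoid and immediate early scores as the mean of log2(CPM + 1) over each list, by day of DSS, with 1 point per library, the shape giving the replicate number and the line the mean of the day. The glucocorticoid score was 6.43 to 7.72 at day 6 and the immediate early score 5.52 to 5.82.

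Of 11 genes for turnover and modification of clock proteins, none was called at day 2 (with no adjustment, p was under 0.05 for 2 that were higher and 1 that was lower), 2 rose and 2 fell at day 4, and 2 rose and none fell at day 6, with list medians of 0.12, 0.20 and 0.13. Timeless, a replication fork gene, rose to 29.8 ± 2.03 CPM at day 4, against 12.6 ± 0.789 CPM at day 0 (log2 fold change 1.18 ± 0.17, adjusted p = 0.000379). The rises at day 4 numbered 1 when any library of days 0 or 4 was left out and 4 without day 6 replicate 2, and the falls numbered 1 when replicate 2 or 3 of day 0 or replicate 1 or 3 of day 4 was left out. The rises at day 6 numbered 1 when replicate 1 or 3 of day 0 or replicate 1 or 2 of day 6 was left out. Of 15 other known clock outputs, 1 rose at day 2, 5 rose and 4 fell at day 4, and 6 rose and 2 fell at day 6, with list medians of 0.41, -0.06 and 0.28. Of all genes tested, 0.118% rose at day 2, 21.2% rose and 12% fell at day 4, and 23.5% rose and 12.4% fell at day 6. The counts of the turnover genes at day 4, and the 2 falls of the outputs at day 6, were near these shares. The single rise of the outputs at day 2, of Pdk4, was lost when any library other than replicates 2 and 3 of day 6 was left out. Their 2 falls at day 6 numbered 1 in 11 of the 12 such fits. Nampt, the gene of the rate-limiting enzyme of NAD salvage, rose to 236 ± 16.4 CPM at day 4 and 214 ± 57.9 CPM at day 6, against 89.8 ± 14.1 CPM at day 0 (1.39 ± 0.19 and 1.22 ± 0.19, adjusted p = 0.000267 and 0.000542). Tspan4, a tetraspanin gene, rose to 105 ± 46.4 CPM at day 6, against 18.1 ± 6.75 CPM at day 0 (2.44 ± 0.32, adjusted p = 0.000174). The 4 falls at day 4 numbered 0 when day 0 replicate 3 or replicate 1 or 3 of day 4 was left out, 1 without day 0 replicate 1 and 2 without day 0 replicate 2. The 5 rises at day 4 numbered 3 when day 0 replicate 3 or replicate 1 or 2 of day 4 was left out, and the 6 at day 6 numbered 3 without day 0 replicate 3. Usp2 is in both of these lists, and Tsc22d3, Pdk4 and Klf9 are in the lists of outputs and of glucocorticoid targets.

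Libraries of the same day also differed together in these genes. At day 4, replicate 1 had the lowest value of its day for 9 of the 10 genes, all but Bhlhe40, where it had the highest. At day 4, replicate 2 had the highest value for those same 9 genes. At day 6, replicate 2 had the highest value for 8 genes, all but Ciart and Bhlhe40. The median deviation from the mean of the day over the 10 genes was -0.40 on the log2 scale for day 4 replicate 1, 0.34 for day 4 replicate 2 and 0.36 for day 6 replicate 2. At day 2, replicate 2 was lowest for 7 genes, and at day 0 no library was highest or lowest for more than 5. How many of all genes tested had these orders was not counted. Over all genes tested, the deviations of some of these libraries were also correlated. The correlation was 0.64 between replicate 2 of day 4 and replicate 2 of day 6, and -0.55 between replicate 1 of day 4 and replicate 2 of day 6. The median SD of the 10 genes within a day, on the log2 scale, was 0.26, 0.19, 0.37 and 0.42 at days 0, 2, 4 and 6, beside 0.21, 0.14, 0.15 and 0.32 over all genes tested.

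Some marker scores moved with these deviations at day 4, and in replicate 2 at day 6. The smooth muscle score of the 3 day 4 libraries was 8.36, 9.06 and 8.87, the fibroblast score 7.97, 8.69 and 8.28, and the score of enteric neurons and glia 3.62, 4.50 and 4.23, in each case lowest in replicate 1 and highest in replicate 2. The epithelial score ran the other way, at 9.97, 9.69 and 9.86. The 3 day 6 libraries had smooth muscle scores of 8.58, 9.30 and 7.95, fibroblast scores of 8.98, 9.65 and 8.33, scores of neurons and glia of 4.46, 5.35 and 3.64, and epithelial scores of 9.45, 8.60 and 10.1. By the median over the 10 genes, replicates 1 and 3 of day 6 were not ordered in this way. Their median deviations were -0.21 and -0.09, while the smooth muscle, fibroblast and neuronal scores were higher in replicate 1. Single genes differed in this. Per1 (deviations -0.14, 0.72 and -0.58), Cry2, Hlf and Bhlhe41 had the order of those scores, lowest in replicate 3. Per2, Per3, Dbp and Tef were highest in replicate 2 but lowest in replicate 1, and Ciart and Bhlhe40 had neither order. Against day 0, smooth muscle markers fell for 4 of 10 at day 4 and 6 of 10 at day 6, fibroblast markers rose for 6 and 7 of 8, markers of neurons and glia rose for 3 and 5 of 10, leukocyte markers rose for 8 and 10 of 10, endothelial markers rose for 1 and 4 of 6, and epithelial markers fell for 0 and 3 of 10. Over all genes tested, 21.2% rose and 12% fell at day 4, and 23.5% rose and 12.4% fell at day 6. None of these markers was called at day 2, where Ciart and Bhlhe41 fell, but some levels already stood apart from day 0. Summed smooth muscle markers were 13050 to 16230 CPM at day 2, against 9312 to 12320 CPM at day 0, with 9 of 10 higher and a median log2 fold change of 0.43. Summed markers of neurons and glia were 140 to 159 CPM at day 2, against 90.0 to 134 CPM at day 0, with 10 of 10 higher and a median of 0.37. The part of the make-up of the tissue in the values of the 10 genes was not tested. Skeletal muscle markers, of which Myh4 and Pvalb were at 0 in all day 2 libraries, summed to 29.0 to 163 CPM (day 0), 23.6 to 37.1 CPM (day 2), 48.4 to 82.6 CPM (day 4) and 9.50 to 100.6 CPM (day 6).

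**Figure D5:**
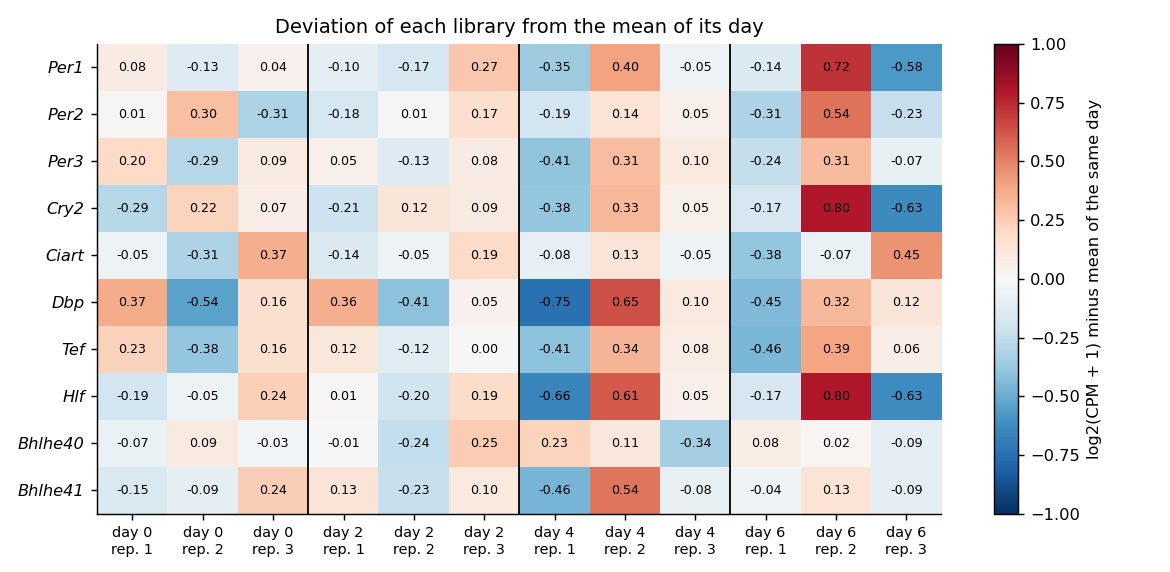
Deviation of each library (columns) from the mean of its day for each of the 10 genes (rows), as a difference of log2(CPM + 1), with red above and blue below the mean. Day 4 replicate 1 is below the mean of its day in 9 genes, and day 4 replicate 2 above it in all 10.

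Likeness of profiles was the root mean square difference between centred log2(CPM + 1) values over the 12 libraries. For each of the 6 genes past the F test, the 3 genes with the most similar profile were sought outside the genes followed here. For Per1, whose own values varied by 0.77 about their mean, these were Hrct1 (0.205), Zhx3 (0.214) and Rasl10b (0.231). For Per3 (own variation 0.55) they were Edn3 (0.205), Igkj5 (0.236) and D630003M21Rik (0.241), and for Tef (0.49) B3gnt9 (0.239), Tmem151a (0.253) and Gm10023 (0.287). For Ciart (0.54) they were Wnt4 (0.271), Pmvk (0.296) and Lss (0.329), and for Bhlhe41 (0.66) Gramd2 (0.305), Lss (0.324) and Foxl1 (0.331). Lss, the gene of lanosterol synthase, was thus among the 3 for both genes that fell at day 2, at differences well over those of the Per1 neighbours. For Dbp (1.07) the nearest were Ighv1-19 (0.497), Gli1 (0.521) and Insig1 (0.558). These differences are larger than those of the other 5 genes, but Dbp also varied most about its own mean. They therefore do not show that Dbp had fewer close neighbours. None of these was in the other clock lists. The genes followed here were left out of the search and could not appear as neighbours of each other. The likeness describes the same 12 libraries and depths.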

How the data were processed

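Mouse mid-colon was measured by RNA sequencing in 12 libraries, grouped by the day in the labels. The submitters' processing notes name HISAT2 2.2.1, featureCounts 2.0.1 and the build mm10, while annotation and strand setting of the counting remain not given in the sources used here. The authors deposited 1 table of CPM for 25904 symbols, and no column was left unmapped. The columns sum to 992026 to 998040 CPM, so 0.196% to 0.797% of reads lie outside the listed genes. All values (100%) were whole reads within 0.1, and 1 read was worth 0.0244 to 0.0322 CPM. Reads amplified without molecular identifiers are not independent molecules, and any precision from depth covers counting error only.

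The test was limma 3.58.1, run in R 4.3.3, on log2(CPM + 1) of genes reaching 1 CPM in 3 or more libraries, with 4 day means, trend and robust moderation and Benjamini-Hochberg adjustment over 15246 genes. Fold changes on this scale understate changes of low genes. The recovered counts were tested with edgeR 4.0.16 as an alternative. The steps were tested on simulated data. The genes, lists and tests were chosen with earlier results of these data known. All 10 genes are described, and from each list up to 4 genes with the largest change among those called, of which the text gives a part. The 12 same-day pairs of libraries differed beyond counting noise (median chi-square per gene 3.04 to 47.0, where counting noise gives 0.455), so none was merged as a repeat deposit, which does not show that they came from separate animals.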

Additional observations from a re-analysis of the deposited data

How the results depend on the processing

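Across 330 fold changes of single genes under all alternatives (6900 values), 6532 kept their side of the threshold, 231 lost a call and 137 gained a call. No called fold change changed sign, whereas some that were not called did, such as Cry2 at day 6 against day 0, which was 0.34 as reported and -0.06 to 0.66 without a library. Whether the replicate numbers pair the samples cannot be told from these values. Of 18 pairs with the same number, 7 had a correlation of deviations over 0.1 (range -0.21 to 0.64, median 0.04). Of 36 pairs with different numbers, 9 did (range -0.62 to 0.54, median -0.02). With the replicate number as a block, 1 of the 10 genes was called at day 2 against day 0, where 2 were called without it, and 5 at day 6 against day 0, where 4 were, with Ciart added (adjusted p = 0.0479); the block left the other counts as they were. For the day 2 count, edgeR also gave 1, and no filter or a mean of at least 5 CPM gave 0 (6 and 4 at an unadjusted p under 0.05). The filter on the mean leaves out Ciart and Bhlhe41 by construction, and the cause of the other changes was not tested. The count at day 4 against day 2, 2 as reported, was 1 in edgeR, with a mean of at least 5 CPM and under median-of-ratios scaling. Quantile normalization gave 7 at day 6 against day 0 and 2 at day 6 against day 4, where 4 and 1 were reported, and edgeR gave 2 at day 6 against day 4. At day 6 against day 0, median-of-ratios scaling gave 6 and edgeR 5. At day 4 against day 2, quantile normalization gave 3, with Bhlhe40 lost and falls of Per2 and Per3 added. The F test count of 6 was 4 to 6 in these settings. Leaving out 1 library at a time gave 0 to 6 genes (day 2 against day 0), 1 to 5 (day 4 against day 0), 4 to 6 (day 6 against day 0), 0 to 3 (day 4 against day 2), 0 to 2 (day 6 against day 4) and 5 to 7 (F test). The 6 at day 2, which added Per1, Per3, Dbp and Tef, came without day 6 replicate 2, where 559 of 15124 genes were called in place of 49. Over all genes, a mean of at least 5 CPM gave 30 calls at day 2 and 258 at day 6 against day 4, where 49 and 434 were reported; without a library of day 4 or 6, the second ranged from 111 to 2184, the highest without day 6 replicate 3.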
